A study of Mus musculus with 2 samples.

Results

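The peaks described here are the Tdg peaks at the telomeric ends of the mouse autosomes. They are the 4394 of 72970 called peaks whose midpoint lay within 5 Mb of the end of the last peak of chromosomes 1 to 19. The choice used position alone. The last peak of each chromosome is a member by construction, and the distance from it to the end of the chromosome itself is not known here. The series holds 2 ChIP-seq libraries of E14, a line of mouse embryonic stem cells. One came from cells labelled Bio-Tdg (n = 1) and the other from BirA cells labelled as the mock (n = 1). The list analysed is that of the Bio-Tdg library, and no values of the mock were used, so no background measured in it can be set beside any result. Biotag ChIP fuses the protein of interest to a peptide on which the BirA ligase places biotin, and streptavidin then captures it with its DNA. The labels do not say how strongly the tagged Tdg is expressed or whether the cells are a single clone. The list carries no expression values, so the cell type could not be checked against markers.

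Tdg is thymine DNA glycosylase. It excises 5-formylcytosine and 5-carboxylcytosine, which Tet enzymes make from methylcytosine, and base excision repair then puts an unmodified cytosine in their place. In embryonic stem cells these oxidised bases are found mainly at enhancers and promoters. All mouse autosomes are acrocentric, with the centromere at the low-coordinate end, so the high-coordinate end examined here is the one that runs into the telomere of the long arm. Mammalian chromosomes differ in what lies next to that telomere, which can be a gene-rich stretch or a gene-poor one.

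Each chromosome's last 5 Mb was compared with its own interior, defined as everything more than 5 Mb from both its first and its last peak. The interior held 65303 peaks over 2218 Mb, and the remaining 2530 autosomal peaks lay in the first 5 Mb. The last 5 Mb of the 19 chromosomes held 46.3 peaks per Mb and the interior 29.4 peaks per Mb, a ratio of 1.57 (exact 95% interval 1.52 to 1.62). Members thus made up 6.08% of the autosomal peaks on 3.95% of the length between first and last peaks. Intervals cover counting error within this list only. They take peaks as independent and are too narrow where peaks cluster. With 1 library there is no replicate error and no test between samples.

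The pooled ratio hides chromosome ends that lay on both sides of 1. The last 5 Mb was denser than the interior on 13 of 19 chromosomes and less dense on 6. As background, 40% of all 472 windows of 5 Mb laid back from the ends were denser than the interior of their chromosome. Of the 19 last windows, 12 (63.2%) had a ratio whose interval lay above 1, beside 32.6% of all 472 windows. The interval lay below 1 for 6 (31.6%), beside 52.3%, so sparse windows were less frequent at the ends than among all windows. Chromosome 6 had 28.2 peaks per Mb in its last 5 Mb and 24.4 in its interior, and the interval of its ratio of 1.16 held 1 (0.969 to 1.37). The 19 ratios ran from 0.0948 to 4.71, and their median was 1.38 (quartiles 0.602 and 2.02). The ratio of the other 453 windows had a median of 0.753 (quartiles 0.384 and 1.42).

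**Figure D1:**
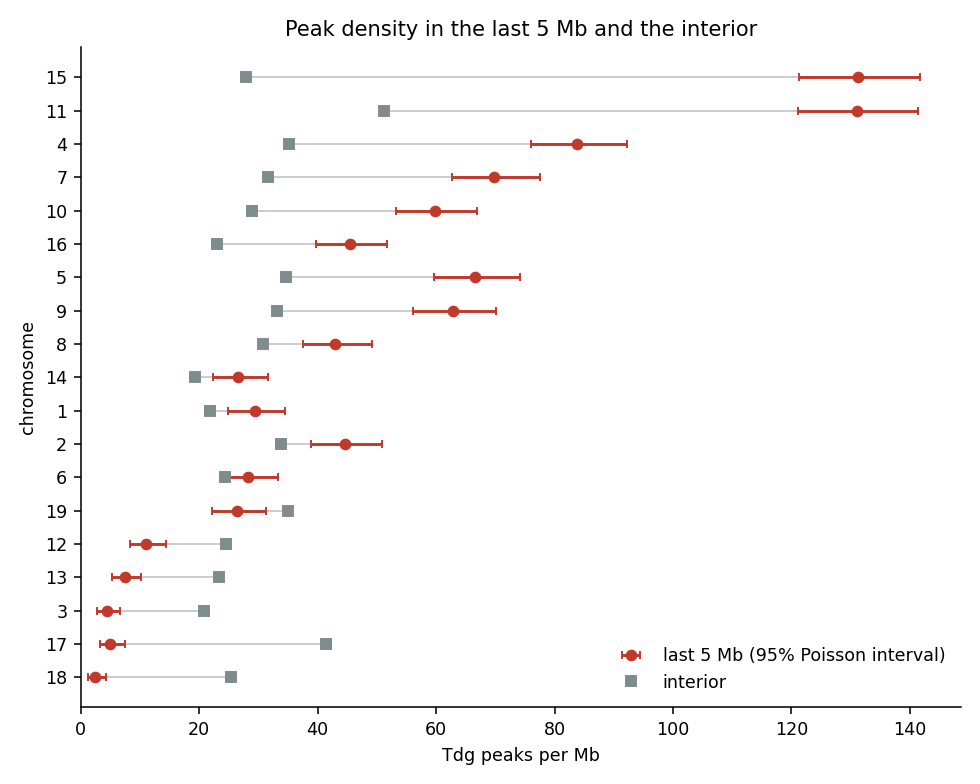
Tdg peaks per Mb (horizontal axis) in the last 5 Mb and the interior of each autosome (vertical axis, ordered by the ratio of both), with exact 95% Poisson intervals for the last 5 Mb. Chromosomes 15 and 11 reach 131 peaks per Mb in their last 5 Mb, whereas chromosomes 3, 17 and 18 lie at 5 or fewer.

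Chromosome 15 had the highest ratio. Its last 5 Mb held 656 peaks, or 131.2 peaks per Mb (95% Poisson interval 121 to 142), and its interior had 27.9 peaks per Mb, a ratio of 4.71 (4.31 to 5.13). Those 5 Mb, 4.99% of the length between its first and last peaks, held 20.2% of its peaks and were the fullest of its 20 windows. Chromosome 11 had nearly the same number at its end, 655 peaks or 131 per Mb, but its interior was also the densest of the autosomes with 51.2 per Mb, so that its ratio was 2.56 (2.36 to 2.77). Chromosome 4 followed with 83.8 peaks per Mb in the last 5 Mb and 35.1 in the interior, a ratio of 2.39 (2.15 to 2.64). Chromosomes 11 and 15 together held 1311 members, 29.8% of all. Chromosomes 7 and 10 also reached at least 2 times their interior density, with ratios of 2.21 and 2.07. These 5 of 19 chromosomes stand beside a share of 12.5% of all 5 Mb windows that reached that ratio.

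Chromosome 18 had the lowest ratio. Its last 5 Mb held 12 peaks, or 2.4 per Mb (1.24 to 4.19), and its interior 25.3 per Mb, a ratio of 0.0948 (0.0489 to 0.166). Chromosome 17 had 25 peaks or 5 per Mb at its end, although its interior, at 41.3 per Mb, was the second densest of the autosomes, and its ratio was 0.121 (0.0782 to 0.179). Chromosome 3 had 22 peaks or 4.4 per Mb in the last 5 Mb and 20.8 in the interior, a ratio of 0.211 (0.132 to 0.321). On chromosomes 17 and 18 no other 5 Mb window held fewer peaks than the last. Chromosomes 13, 12 and 19 were the others with a sparser end, with ratios of 0.317, 0.45 and 0.754. Ratios under 0.5 were thus found at 5 of 19 ends (26.3%), beside 33.7% of all 5 Mb windows. The 6 sparser ends together held 283 members, 6.44% of all.

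Genes could not be assigned to single peaks, because the peaks are on mm9 and the RefSeq genes used here follow the later build GRCm38.p6. The order of genes at the ends can still be read from it, without saying that any of them holds a peak. The last 8 protein-coding genes of each chromosome, with clone-type names left out, are given as background. They were listed by order alone, so some may lie more than 5 Mb from the end. The lengths they cover may differ between chromosomes, and the genes named are examples picked from each 8, which show no theme. On chromosome 15 the last 8 include Itga5, an integrin subunit that binds fibronectin, Nckap1l, a subunit of the actin-regulating WAVE complex of blood cells, and the phosphodiesterase gene Pde1b. On chromosome 11 they include Fn3k, which encodes fructosamine-3-kinase, and Tbcd, a tubulin folding cofactor. On chromosome 4 they include Agrn, which encodes the synaptic organiser agrin, the interferon-induced Isg15, and Noc2l. Among chromosomes with a sparse end, chromosome 18 closes with a stretch that includes Neto1 and Cbln2, both of which encode synaptic proteins, and Cd226, a receptor of lymphocytes. The last 8 of chromosome 17 include Lhcgr and Fshr, the receptors of luteinizing and follicle-stimulating hormone, and the neuropeptide gene Adcyap1. The distances of these genes from the end are not known here. Chromosome 3 has Lrrc7, Depdc1a, the retinal isomerase gene Rpe65, and Wls, which carries Wnt ligands to the cell surface.

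Within the last 5 Mb the outermost megabase held the fewest peaks when the chromosomes were summed, though not on most of them singly. Over all 19 chromosomes it held 32.8 peaks per Mb, and the following 4 megabases held 45.2, 48.8, 49.2 and 55.3 peaks per Mb. In the outermost megabase 7 of 19 chromosomes exceeded their interior density, against 11 to 13 in the other 4. The count was also 7 in the megabase 9 to 10 Mb from the end, and 9 to 14 in those from 5 to 9 Mb. The share over all 1 Mb bins was not computed, so 7 cannot be called low. The outermost megabase was the emptiest of the 5 on 7 of 19 chromosomes and the fullest on 2, chromosomes 6 and 18. Chromosomes 10 and 8 show the contrast within an end that is dense as a whole. Chromosome 10 had 7 peaks in its outermost megabase and 120 between 2 and 3 Mb from the end, and chromosome 8 had 8 in its outermost and 58 between 2 and 3 Mb. Chromosome 2 differed from these, with 75 and 102 peaks in its outer 2 megabases and 2 between 4 and 5 Mb from the end.

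**Figure D2:**
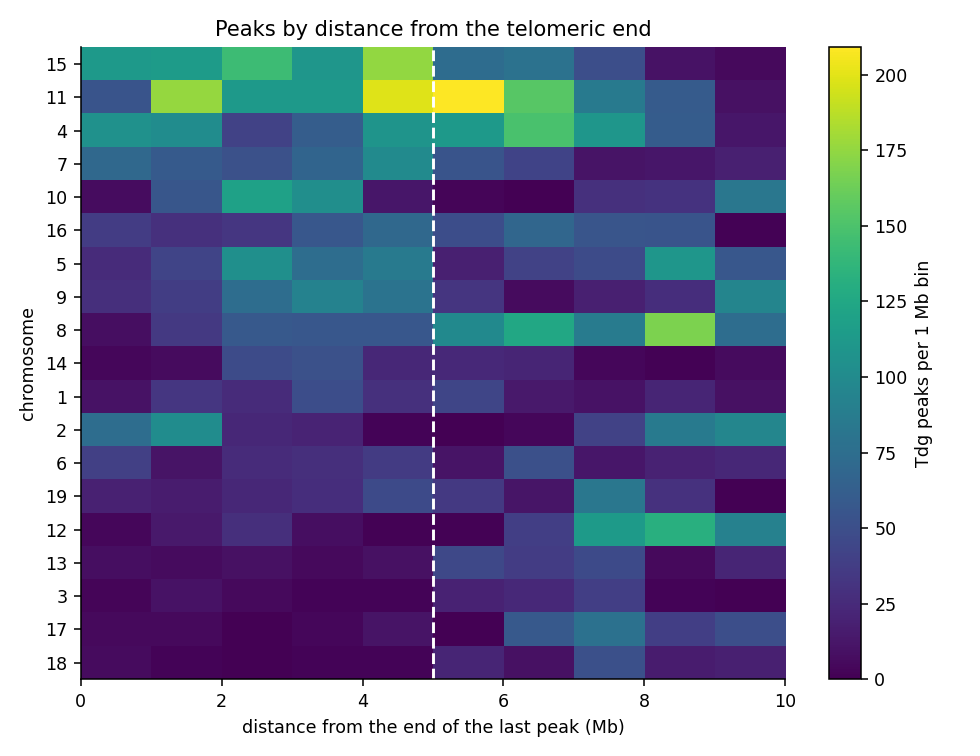
Number of Tdg peaks in 1 Mb bins (colour) by distance from the end of the last peak (horizontal axis, Mb), with 1 row per autosome ordered as in the density plot and a dashed line at 5 Mb. Inside the line, the 5 bins of chromosome 15 all hold 110 or more peaks, and those of chromosomes 3, 17 and 18 hold at most 11.

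Of the 95 megabases at the ends, 17 held at least 100 peaks (17.9%), beside 6.21% of all 2400 autosomal bins, and 2 held none, beside 7.83%. The median bin held 33 peaks at the ends and 16 elsewhere. The most crowded was chromosome 11, 116766035 to 117766034, with 199 peaks, followed by chromosome 11, 119766035 to 120766034, with 176 and chromosome 15, 98369320 to 99369319, with 175. All 5 bins of chromosome 15 and 4 of the 5 of chromosome 11 were among the 17. The empty bins lay 2 to 3 Mb from the end on chromosomes 17 and 18. They lie in the longest stretches between members, 2180 kb on chromosome 18 (86883024 to 89062711) and 1928 kb on chromosome 17 (91674319 to 93602698).

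The higher density was not limited to the last 5 Mb. In 5 Mb windows counted back from the last peak, the 19 chromosomes together had 46.3, 45.5, 37.9, 45.7 and 48.5 peaks per Mb over the last 25 Mb. The next 3 windows, out to 40 Mb, had 37.2, 25.9 and 32.1 per Mb. The number of chromosomes above their interior density was 13 in the last window, and 12, 14, 11 and 13 in the next 4. It was 8, 7 and 5 in the 3 windows after those. Ranked among the 5 Mb windows of its own chromosome, the last window was above most others on most chromosomes. A median of 76.5% of the other windows of the same chromosome held fewer peaks, with quartiles over chromosomes of 33.6% and 88.8%. It was first in rank on chromosome 15 alone and among the first 3 on chromosomes 7, 9, 10, 11 and 15. As background, 1 of the 11 to 38 windows of each chromosome ranks first and 3 rank among the first 3 by definition.

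**Figure D3:**
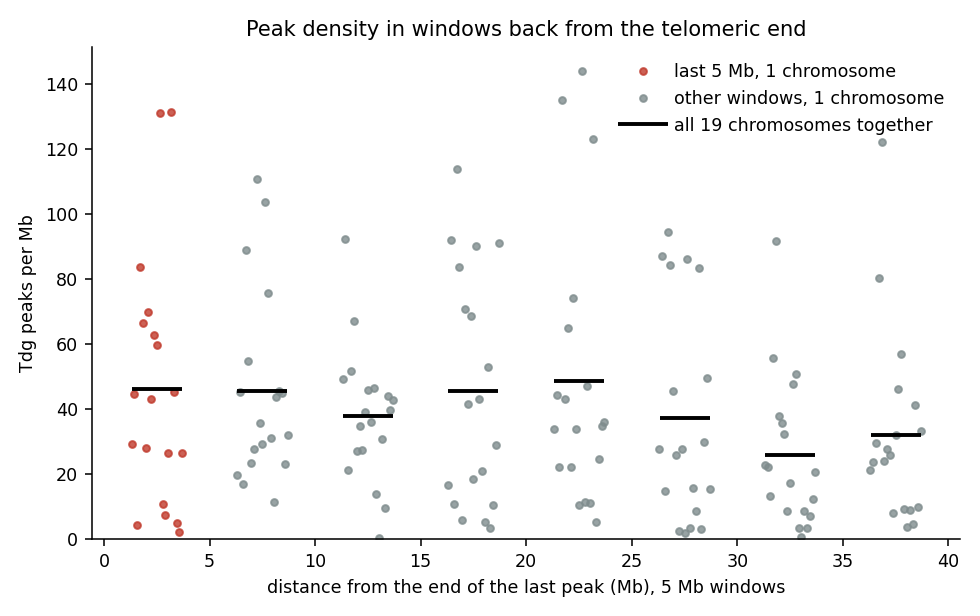
Tdg peaks per Mb (vertical axis) in 5 Mb windows by distance from the end of the last peak (horizontal axis, Mb), with 1 point per autosome and a bar for all 19 together. The bar of the last 5 Mb, at 46.3 peaks per Mb, lies at a height like that of the windows out to 25 Mb, and the points of the last window spread from 2.4 to 131.2.

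Peaks at the ends were much like interior peaks in score and width. The score is the authors' own value per peak, which in the output of MACS is a scaled negative logarithm of the p-value. The median score was 571 in the last 5 Mb (quartiles 343 and 1170) and 553 in the interior (336 and 1120). The difference of 18.1 had an interval from the spread of the members' median of −0.06 to 39.1, which holds 0, and without chromosomes 11 and 15 the difference was −4.63. The median width was 862.5 bp at the ends (quartiles 623 and 1354) and 851 bp in the interior (614 and 1307). The interval of that difference of 11.5 bp, −2 to 30, also held 0. Reads recovered from score and width had a median of 43 per peak at the ends and 42 in the interior, and 49.8 and 49.5 reads per kb. These medians leave out the highest-scoring 3.48% of members and 2.78% of interior peaks, for which no reads were recovered. Scores of at least 1000 were reached by 29.4% of members (1290 of 4394, 95% binomial interval 28.0 to 30.7) and by 28.2% of interior peaks, beside 28.4% of all autosomal peaks. Peaks wider than 3 kb made up 2.66% of members (117, interval 2.21 to 3.18) and 1.86% of interior peaks (1.76 to 1.97), beside 1.92% of all. Their share was higher at the end than in the interior on 10 of 19 chromosomes. Score and width are not independent, since Spearman's rho between them was 0.975 over the 4394 members, which share 1 library.

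By chromosome, the median score was higher in the last 5 Mb on 10 chromosomes and lower on 9, and 17 of the 19 differences had the same sign for score and for width. On 15 chromosomes the interval of the members' median held the interior median. Above it were chromosome 15, with a median score of 661 (interval 609 to 723) at the end and 553 in the interior, and chromosome 10, with 664 (568 to 792) and 544. Below it were chromosome 16, with 476 (402 to 528) at the end and 535 in the interior, and chromosome 6, with 421 (382 to 524) and 551. Chromosome 15 and chromosome 16, whose ends are both denser than their interiors, therefore lay on opposite sides in score. The sparse end of chromosome 3 had the highest median score, 1045, but from 22 peaks, with an interval from 402 to 1575. Across the 19 chromosomes, which share the library, Spearman's rho between the ratio of density and the difference in score was 0.0298.

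**Figure D4:**
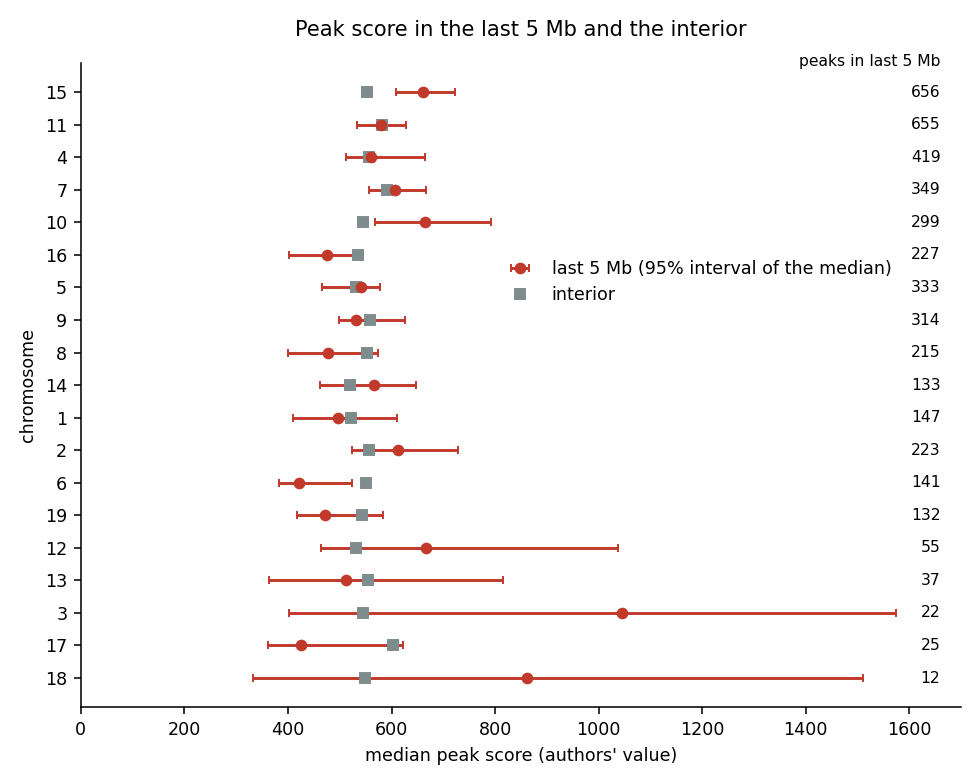
Median peak score (horizontal axis, the authors' value) in the last 5 Mb and the interior of each autosome (vertical axis), with 95% intervals of the median from order statistics for the last 5 Mb and the number of peaks there at the right. Chromosomes 15 and 10 lie above their interior by more than the interval and chromosomes 16 and 6 below it.

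In the outer 2 Mb of the ends, peaks had a median score of 604 (1482 peaks), and in the next 3 Mb of 556 (2912 peaks). By chromosome the direction was mixed. Of the 13 with at least 20 peaks in both, 7 had the higher median in the outer 2 Mb and 6 in the next 3 Mb. Chromosome 19 had 669 in the outer 2 Mb and 440 in the next 3 Mb, chromosome 2 had 704 and 486, and chromosome 15 had 795 and 607. Chromosome 5 went the other way, with 439 and 545.

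From midpoint to midpoint, neighbouring peaks lay a median of 6106 bp apart at the ends and 7263 bp apart in the interior, a ratio of 0.841. The direction rested on chromosomes 11 and 15, since the ratio was 1.05 without them. By chromosome, neighbours were closer at the end on 7 chromosomes and farther apart on 12. All 7 had a denser end, but on the other 6 chromosomes with a denser end (1, 2, 5, 6, 8 and 14) the median distance was nevertheless longer there. Chromosome 8 had 43 peaks per Mb with a median distance of 10520 bp at its end, and 30.7 per Mb with 7060 bp in its interior. At the sparse ends the distances were far longer, with 88.8 kb on chromosome 17, against 5.55 kb in its interior, and 77.9 kb on chromosome 18, against 8.71 kb. Low density itself lengthens the distances there.

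How evenly a window was filled was described by the median distance divided by the mean distance, which is lower when peaks sit in tight groups with wide gaps between them. Over the 18 last windows with at least 20 peaks it had a median of 0.423 (lowest 0.222, highest 0.596). Over the 410 other windows of that kind the median was 0.337 (quartiles 0.26 and 0.409). The end was more even than the median of the chromosome's other windows on 13 of 19 chromosomes. That count includes chromosome 18 among those less even (0.173 against 0.331), although its last window, with 12 peaks, is under the limit of 20. By construction, windows exceed the median of the others about as often as not. Chromosome 15 had 0.543 at its end and a median of 0.314 over its other windows, and chromosome 13 had 0.222 and 0.354. Evenness went with crowding over the 428 windows (Spearman's rho 0.391, description only). Among windows with at least 300 peaks the median was 0.501 at the 6 ends (lowest 0.39, highest 0.568). In the 51 others it was 0.43 (lowest 0.313, highest 0.59). The window of chromosome 15 that lies 20 to 25 Mb from its end, with 615 peaks, had 0.529, close to the value of the end. A neighbour within 5 kb was present for 64.3% of members (interval 62.9 to 65.7) and 59.9% of interior peaks, beside 60.1% of all autosomal peaks. The share was nevertheless higher at the end than in the interior on only 6 of 19 chromosomes. No neighbour within 50 kb was found for 2.69% of members and 4.73% of interior peaks, beside 4.65% of all. At the 6 sparser ends that share was 19.4%, against 5.45% in the interiors of the same chromosomes. These ends were grouped by their low density, which itself raises the share, so it is no separate trait.

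**Figure D5:**
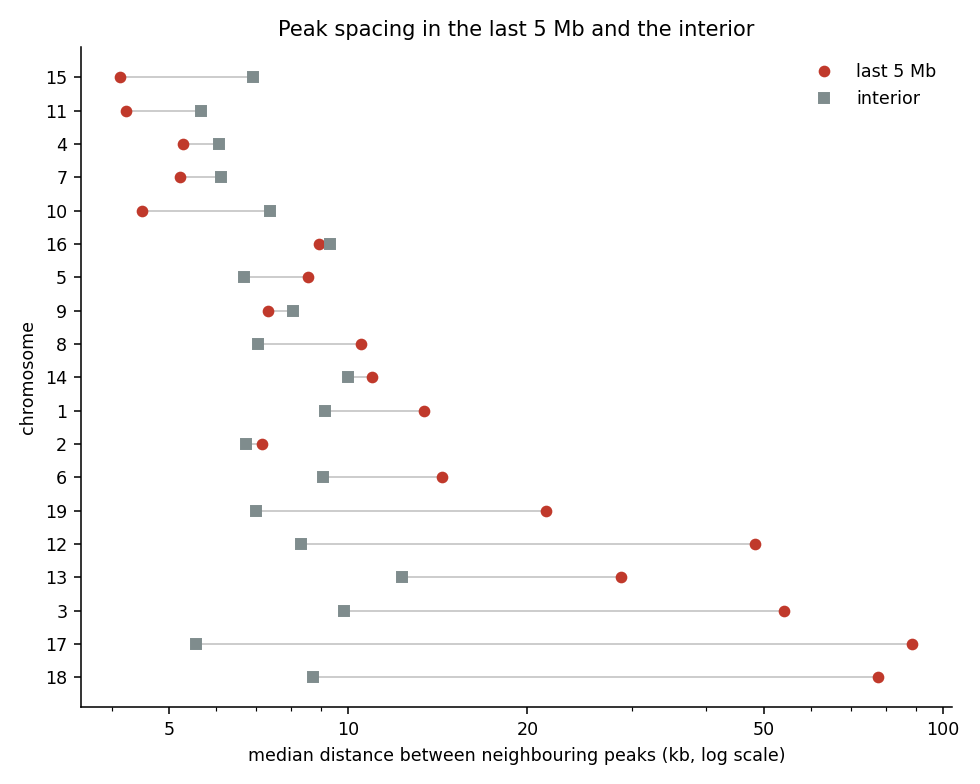
Median distance between midpoints of neighbouring peaks (horizontal axis, kb, log scale) in the last 5 Mb and the interior of each autosome (vertical axis, ordered by the ratio of density). Distances are shorter at the end on 7 chromosomes and longer on 12, up to 88.8 kb on chromosome 17.

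The widest members were chromosome 15, 98817423 to 98824805, at 7383 bp, chromosome 15, 102071918 to 102078892, at 6975 bp, chromosome 1, 193005909 to 193011584, at 5676 bp, chromosome 2, 180624821 to 180630135, at 5315 bp, and chromosome 15, 98458588 to 98463834, at 5247 bp. All 5 had a score of 3100, and the number of reads could not be recovered for them. That was so for 153 members (3.48%, interval 2.96 to 4.07) and for 2.78% of interior peaks, beside 2.87% of all autosomal peaks. The share was higher at the end than in the interior on 8 of 19 chromosomes. Reads were recovered only for peaks below a set score, so the 153 are the members with the highest scores. They may hold more reads than those named next, which scored from 2964 to 3029. Among the other members the most reads were 225 on chromosome 10, 127027046 to 127030530. The next were 220 on chromosome 9, 120841212 to 120844489, and 218 on chromosome 11, 117749107 to 117752208. Then came 216 each on chromosome 2, 179176178 to 179179325, and chromosome 6, 148390982 to 148393917. With peaks joined across gaps under 1 kb, the longest run at an end was chromosome 11, 120085393 to 120104454, with 7 peaks over 19062 bp.

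At the end with the highest ratio, the last peak of chromosome 15, 103366974 to 103369319, was 2346 bp wide with 174 reads. At the end with the lowest, the last peak of chromosome 18, 90751721 to 90752392, was 672 bp wide with 27 reads. Over the 19 last peaks the reads ran from 22 to 174 with a median of 32. The peaks just inside the limit of 5 Mb lay 4.38 to 4.999 Mb from the end, with scores from 277 to 1445 (median 432). Those just outside lay 5.002 to 6.72 Mb from it, with scores from 276 to 2764 (median 347).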

How the data were processed

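For Bio-Tdg the authors deposited peaks with a start, an end and a score each, without header. The submitters' processing notes name MACS 1.4.1, Bowtie 0.12.7 and CASAVA 1.8 and, as the build, mm9, without their roles. The calling threshold and the control library are not given in the sources at hand, and the depth of the library is unknown. Groups were taken from the ChIP label. Positions are printed counting from 1.

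Members, interior, 5 Mb windows and 1 Mb bins were set by peak midpoints, counted from the end of the last peak. Density has exact 95% Poisson intervals, ratios exact conditional ones, shares exact Clopper-Pearson ones, and medians order-statistic ones. Reads per peak were recovered for 70884 peaks with a score below 3050, as the whole number whose Poisson tail at 1.13 reads per kb (width at least 370 bp) gives the score within 0.01. They may all be 1 too low, depending on how the caller counts the tail. The recovery of reads and the measures of density and spacing were run on simulated data, as a check of the code only. Simulated scores came from the same formula, so the simulation cannot show whether the caller used it. In the deposited list the formula matched all 70884 peaks below 3050, with a largest deviation of 0.00643 in score. It did so with 1 rate for the whole list, fitted to these scores. Simulated peaks were placed uniformly at random, unlike the clustered peaks here. The peaks named are the 5 widest members and the 5 with the most recovered reads. Also named are the last peaks at the highest and lowest ratio and those at the limit. Genes named by order at the ends come from RefSeq GRCm38.p6 and not from peak positions. The members and measures were chosen with earlier results of these data known. No sequence of mm9 was used. Tools were Python 3.11.15 with pandas 2.3.3, scipy 1.17.1, numpy 2.4.6 and, for figures, matplotlib 3.10.9.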

Additional observations from a re-analysis of the deposited data

How the results depend on the processing

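The settings that leave out chromosome 15, alone or with 11, were added after seeing the data, as was the stricter score for the rank. The ratio of density stayed above 1 in each setting run. It was 1.30 for the last 2 Mb, 1.64 at a score of at least 1000, 1.68 without the outermost 1 Mb, 1.63 in bases covered, 1.38 as the median of the 19 ratios, 1.47 without chromosome 11, 1.41 without 15 and 1.28 without both. Leaving out any other single chromosome gave 1.52 to 1.67. The number of chromosomes with a denser end fell to 8 of 19, a minority, for the last 2 Mb and was 12 or 13 otherwise. No share over all windows of 2 Mb was computed to set beside it. The difference in median score was 50.8 for the last 2 Mb, 53.1 among peaks scoring at least 1000, −5.29 for the last 10 Mb and −4.63 without chromosomes 11 and 15. That in width was 36.5 bp for the last 2 Mb, 71.5 bp at a score of at least 1000, 37 bp after merging within 1 kb, −2 bp for the last 10 Mb and −1 bp without chromosomes 11 and 15. The ratio of spacing was 0.95 for the last 2 Mb, 0.729 at a score of at least 1000 and 0.789 without the outermost 1 Mb. It turned to 1.05 without chromosomes 11 and 15. The causes were not tested. No paired analysis was possible because there is a single library with values. The fewest recovered reads in a member were 21, so weaker binding could go uncalled.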
